A study of Mus musculus with 6 samples.

Results

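The ubiquitin system attaches ubiquitin to proteins through E1 activating, E2 conjugating and E3 ligase enzymes, and deubiquitinases take it off again. Genes named Ube2 encode the E2 conjugating enzymes, and genes named Usp followed by a number encode the ubiquitin-specific proteases, the largest family of deubiquitinases. All rows of the count table with such a symbol were taken, other than Ube2c, Ube2l6 and Ube2o, which gave 72 genes of the 13007 in the table, 29 Ube2 and 43 Usp. A few rows were set apart in a later count by their annotation or by reports, and this list may be incomplete. Ube2d-ps is annotated as a transcribed pseudogene, Ube2cbp is named for binding an E2, Usp6nl encodes a GTPase-activating protein for RAB proteins, and Usp39, Usp53 and Usp54 are USP-like proteins reported to lack protease activity.

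The AEL group, for acute erythroid leukemia, was GFP+ mouse bone marrow leukemic cells, labelled Trp53-/- and ERG-expressing, in which an introduced ERG was expressed together with GFP. The NC group was normal erythroid precursors, labelled WT, sorted from marrow by CD71 (the transferrin receptor) together with Ter119, an erythroid surface marker. All 6 libraries were from C57BL/6 mice, 3 per group, and a shared source label names SETBP1 and ASXL1 mutations even for the NC samples labelled WT. Effects of the sort, which used different markers in each group, and effects of leukemia cannot be told apart. The labels call the replicates biological but name no animals, so p-values measure only how far these samples spread, which may be technical.

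Poly-A RNA was sequenced, and library totals ran from 8541477 to 9945330 counts in AEL and from 8171676 to 9385507 counts in NC. Levels are given as CPM, counts scaled to the library total after TMM scaling, which sets libraries to a common level over most genes. A gene was called when its adjusted p from edgeR's quasi-likelihood test, adjusted by the Benjamini-Hochberg method over 12427 genes, was below 0.05. Erg, named in the genotype label, stood at 556 to 790 CPM in AEL, against NC values of 4.38 to 8.52 CPM. Trp53, labelled deleted in AEL, stood at 976 to 1171 CPM in AEL, against NC values of 162 to 177 CPM, and counts per gene say nothing of a deleted part, so that label is not checked by them. The 10 erythroid markers summed to 3159 to 8602 CPM in AEL, against NC values of 31040 to 42208 CPM, with none at 0 in all libraries of either group.

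In the mature red cell lineage, ubiquitin conjugation is known to take part in clearing proteins and organelles that the cell no longer needs, and several E2 genes are known to be abundant in erythroblasts. An E2 partly sets which kind of ubiquitin chain is built, and so whether the target is sent to the proteasome or put to a signaling use. Ubiquitin-specific proteases differ from each other mainly outside their catalytic domain, in the parts that bind substrates and cofactors.

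Promoter sequences are shown for the 2 Usp genes with the largest rises and the 2 Ube2 genes with the largest falls among those at 10 CPM or more. They run from 250 bases before to 50 bases after the annotated start, on the gene's strand, from RefSeq on GRCm38.p6. The Usp36 promoter (chr11:118290195-118290494, minus strand), the Usp24 promoter (chr4:106315963-106316262, plus strand), the Ube2h promoter (chr6:30304490-30304789, minus strand, 1 of 2 listed) and the Ube2s promoter (chr7:4812291-4812590, minus strand) read as below, with motif matches in capitals.
Usp36: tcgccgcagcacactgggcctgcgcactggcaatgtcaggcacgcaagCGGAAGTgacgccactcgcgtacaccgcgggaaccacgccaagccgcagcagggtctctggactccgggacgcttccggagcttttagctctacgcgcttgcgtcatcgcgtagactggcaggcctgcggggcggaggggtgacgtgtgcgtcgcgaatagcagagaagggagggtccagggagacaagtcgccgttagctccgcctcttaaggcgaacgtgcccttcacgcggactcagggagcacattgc
Usp24: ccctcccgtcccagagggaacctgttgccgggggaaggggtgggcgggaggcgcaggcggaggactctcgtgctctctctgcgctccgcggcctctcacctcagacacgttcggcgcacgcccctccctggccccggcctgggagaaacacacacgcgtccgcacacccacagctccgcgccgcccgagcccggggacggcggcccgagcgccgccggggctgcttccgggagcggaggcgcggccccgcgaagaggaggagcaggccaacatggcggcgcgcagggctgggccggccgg
Ube2h: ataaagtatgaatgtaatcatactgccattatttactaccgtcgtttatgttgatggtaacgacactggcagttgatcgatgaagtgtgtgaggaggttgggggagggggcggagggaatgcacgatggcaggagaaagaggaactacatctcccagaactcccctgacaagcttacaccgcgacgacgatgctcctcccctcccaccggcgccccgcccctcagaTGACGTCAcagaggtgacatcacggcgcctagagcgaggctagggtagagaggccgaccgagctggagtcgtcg
Ube2s: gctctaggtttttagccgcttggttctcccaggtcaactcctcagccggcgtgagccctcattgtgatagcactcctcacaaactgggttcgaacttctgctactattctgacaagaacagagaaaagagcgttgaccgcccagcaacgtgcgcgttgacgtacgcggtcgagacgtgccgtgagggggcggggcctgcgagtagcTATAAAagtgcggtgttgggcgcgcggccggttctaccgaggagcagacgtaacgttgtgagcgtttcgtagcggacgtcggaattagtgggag

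Of 5 motifs searched on both strands, the ETS motif CGGAAGT was in the Usp36 window, the cAMP response element TGACGTCA in the Ube2h window and the TATA box TATAAA in the Ube2s window. The Usp24 window held none of them. RefSeq listed 67 promoters for 56 of the 72 genes, and 8 of these held the ETS motif, which 6.42% of all 32851 promoters held. The E-box CACGTG was in 8 of the 67, against 7.15% of all promoters, and the GATA motif AGATAA in 1 of the 67, against 11.2%. The cAMP response element was in 2 of the 67, against 1.79% of all promoters, and the TATA box in 5, against 13.6%. The members' promoters had a median GC content of 66.7%, against 52.7% over all promoters, and its part in these shares was not tested. A match is a description of the letters and shows no binding.

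Of 41 Usp genes tested, 13 were called higher in AEL and 6 lower, and of 29 Ube2 genes tested, 2 were called higher and 7 lower. In all 28 of 70 were called, against 52.8% of all genes tested, of which 23.9% were called higher in AEL and 29.0% lower. As shares, 31.7% of the Usp genes were called higher and 14.6% lower, and 6.90% of the Ube2 genes were called higher and 24.1% lower. The share of Ube2 genes called lower was thus below that of all genes, and the difference between the classes was not tested. The median log2 fold change of AEL over NC was 0.26 over the Usp genes and -0.14 over the Ube2 genes, against -0.051 over all genes. Of the Usp genes 6 were called and at least 2-fold higher (13.0% of all genes) and 1 at least 2-fold lower (21.7% of all genes). The latter is Usp35, a gene that passed the filter of 1 CPM only through its NC libraries. Of the Ube2 genes 0 were at least 2-fold higher and 3 at least 2-fold lower. Ube2d1, among these 3, also needed its NC libraries to pass the filter. All 3 AEL libraries lay above all 3 NC libraries for 18 Usp genes and 2 Ube2 genes, against 29.9% of all genes, and below them for 9 Usp genes and 11 Ube2 genes, against 36.1%; together these 20 and 20 genes compare with 66.0% of all genes that did not overlap. Without Usp6nl, Usp39, Usp53 and Usp54, 12 of 37 Usp genes were higher and 5 lower. Without Ube2d-ps and Ube2cbp, 2 of 27 Ube2 genes were higher and 7 lower.

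**Figure D1:**
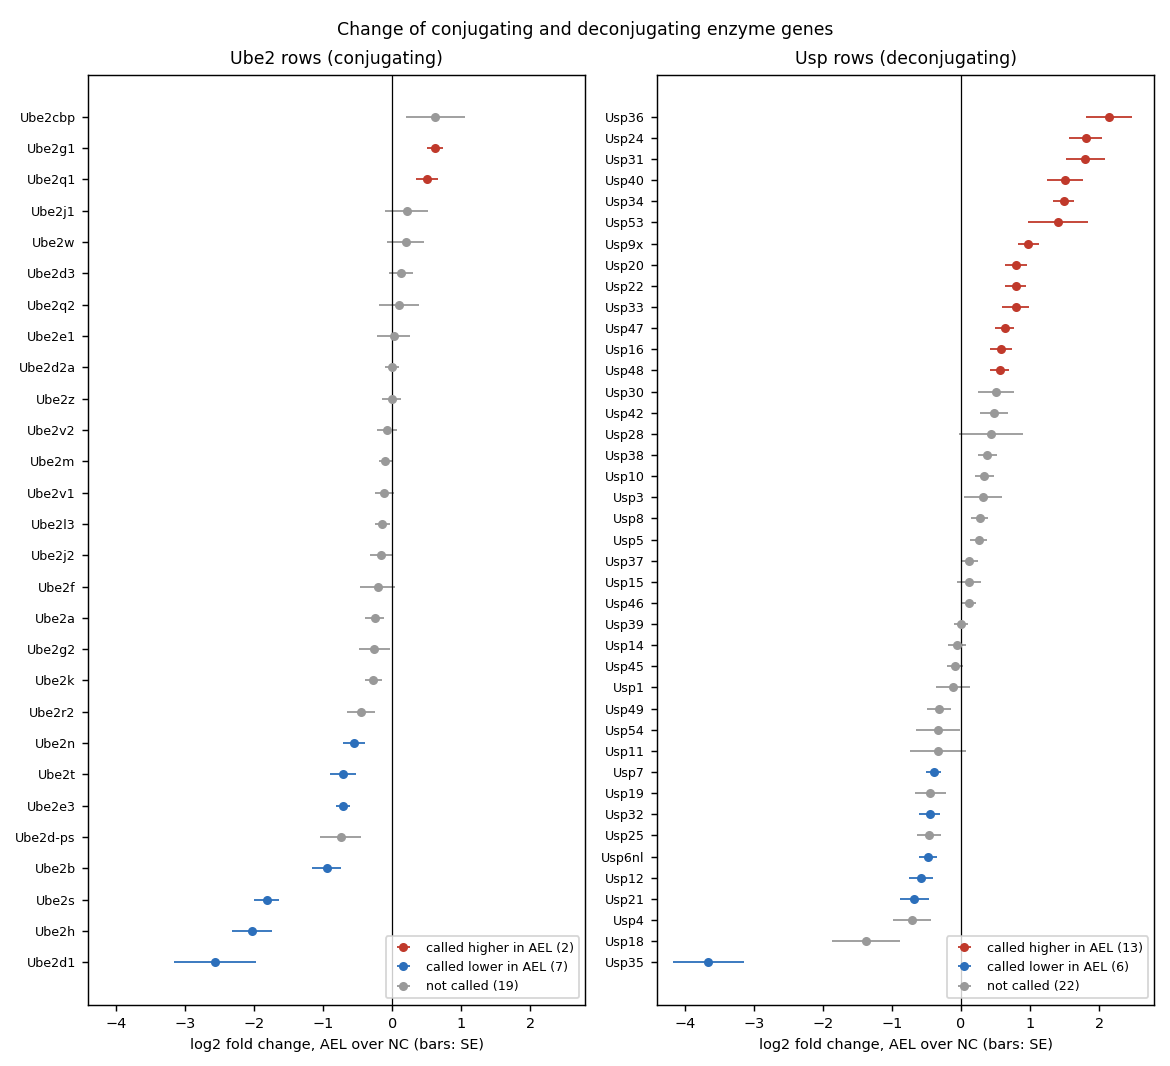
Log2 fold change of AEL over NC for tested genes, with Usp and Ube2 genes in separate panels, points for the estimate and bars for its SE. Colors mark the genes called higher, called lower or not called, and 13 Usp genes but 2 Ube2 genes lie on the called side above 0.

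These counts depend on the scaling. Scaling to library totals alone moved the median of all genes to 0.14, and then 19 Usp genes were higher and 1 lower, and 2 Ube2 genes were higher and 6 lower. The share of all called genes that were higher was 55.2% with library totals alone and 55.5% after quantile normalization, against 45.2% with TMM scaling. The gap between the class medians, Usp minus Ube2, was 0.40 with TMM scaling, also 0.40 with library totals alone, and between 0.25 and 0.47 over 15 alternative settings. The small falls among the Usp genes were unstable calls, and without any 1 of the 3 NC libraries, 1 of the 6 was still called.

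The ratio of summed counts of the 2 classes needs no scaling between libraries. The Usp counts were 2.78, 2.19 and 2.31 times the Ube2 counts in AEL replicates 1 to 3, and 1.73, 1.77 and 1.92 times in NC replicates 1 to 3. Every AEL library lay above every NC library. Without Usp24 the ratio was 2.35, 1.99 and 2.05 in AEL and 1.66, 1.70 and 1.84 in NC, and the groups stayed apart. Without Usp24, Usp34, Usp36, Usp31 and Usp9x, 5 genes chosen after their values were seen, it was 1.96, 1.74 and 1.69 in AEL and 1.57, 1.58 and 1.72 in NC, and the groups overlapped. Summed CPM of the Usp genes was 5617 ± 331 in AEL and 4812 ± 193 in NC (SD, n = 3 each), and that of the Ube2 genes was 2327 ± 160 in AEL and 2664 ± 41.8 in NC. With library totals alone, the log2 difference of the Ube2 sum was -0.0096, against -0.20 with TMM scaling.

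**Figure D2:**
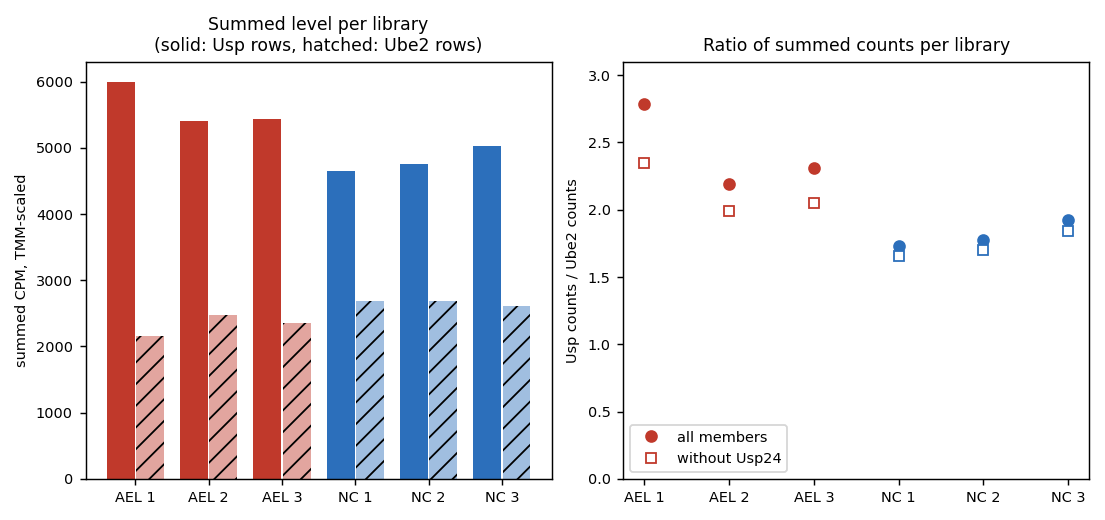
Left, summed CPM of the 43 Usp genes (solid bars) and 29 Ube2 genes (hatched bars) in each library. Right, the ratio of summed Usp to summed Ube2 counts in each library, for all members (2.19 to 2.78 in AEL and 1.73 to 1.92 in NC) and without Usp24 (open squares).

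The proteases are longer genes, and change ran with length over the whole table. Among genes at 10 CPM or more, put into 5 nearly equal groups by annotated exon length, the median log2 fold change was -0.35 in the shortest, then -0.090, 0.061 and 0.17, and 0.41 in the longest. The longest of these groups, from 7.83 kb, held 19 Usp genes, of which 10 were higher and 1 lower, and 4 Ube2 genes, of which none was called. Over all genes of that group, 44.4% were called higher and 13.5% lower. The median exon length was 7.77 kb over the Usp genes, 4.41 kb over the Ube2 genes and 4.34 kb over all genes. After the median of its own length group was taken from each gene, the median log2 difference was 0.14 over 37 Usp genes and -0.24 over 26 Ube2 genes. Spearman's rho between length and log2 fold change was 0.26 across 8830 genes, which are not independent replicates, and the part of length in the class difference was not tested.

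**Figure D3:**
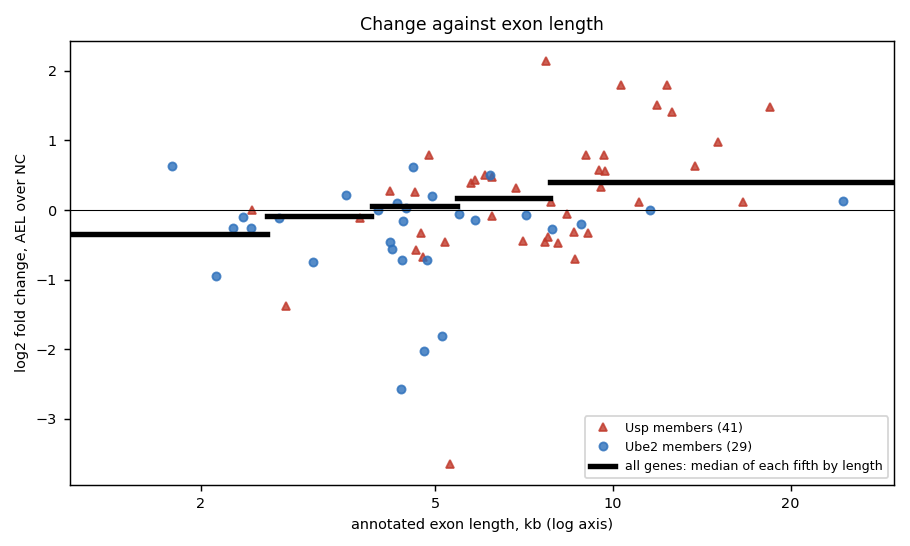
Log2 fold change of AEL over NC against annotated exon length (log axis) for the Usp and Ube2 genes, with black bars for the median of all genes in each of 5 length groups. The bars climb, at -0.35 in the shortest group and 0.41 in the longest, and 19 Usp genes sit in the longest group.

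Markers of other blood cells also differed between the groups, and in bulk RNA fewer cells of a type and less RNA per cell cannot be told apart. Of 15 neutrophil markers 14 were called lower, where 29.0% of all genes were called lower and 23.9% higher. The 15 markers summed to 20.7 to 1264 CPM in AEL, against NC values of 8352 to 9849 CPM. Of 15 monocyte and macrophage markers 14 were lower, with sums of 30.3 to 214 CPM in AEL, against NC values of 4215 to 5011 CPM, and Spic, Ms4a7 and Marco were at 0 in all AEL libraries. All 10 B cell markers were lower, with sums of 1.69 to 2.74 CPM in AEL, against NC values of 230.0 to 276 CPM. The 4 T and NK cell markers in the table summed to 0.225 to 0.915 CPM in AEL, against NC values of 47.1 to 52.7 CPM. The B cell, T and NK cell markers tested, and C1qa, C1qc, Cd14, Spic, Ms4a7, Fcgr1 and Marco, lay below 1 CPM in every AEL library. They passed the filter through NC alone, so a difference was fixed by the filter and their values are a description. Of 5 megakaryocyte markers in the table, 4 were tested, of which 1 was higher and 2 lower, and the 5 summed to 42.2 to 260 CPM in AEL, against NC values of 83.8 to 101 CPM. Itga2b made up most of the AEL sums, at 244, 33.3 and 52.0 CPM in AEL, against NC values of 20.5, 22.6 and 14.5 CPM, and Gp1bb was at 0 in all AEL libraries and at 1.03 to 3.43 CPM in NC. The part of these cells, and of the erythroid markers, of which 8 of 10 were lower, in the results on Ube2 and Usp genes was not tested.

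Among the conjugating enzymes, Ube2h, an E2 abundant in erythroid cells that works with the CTLH ligase complex, had the largest fall of those at 10 CPM or more. It stood at 39.9, 34.4 and 19.9 CPM in AEL, against NC values of 99.5, 140 and 146 CPM. All AEL libraries were low, with replicate 3 the lowest, and the log2 fold change was -2.03 (SE 0.29, adjusted p = 0.00174). Ube2s, which extends lysine-11 chains with the anaphase-promoting complex in mitosis, stood at 21.6, 15.8 and 19.5 CPM in AEL, against NC values of 75.6, 65.7 and 59.9 CPM. It had a log2 fold change of -1.82 (SE 0.18, adjusted p = 5.06e-04), and its groups lay far apart with little spread in either. Both calls held under all 15 alternatives.

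The Ube2d and Ube2e enzymes pair with many E3 ligases. Ube2e3 fell, with 111, 98.3 and 110.3 CPM in AEL, against NC values of 184, 170.2 and 169.7 CPM, with no overlap between the groups (log2 fold change -0.71, SE 0.11, adjusted p = 0.00198). Its paralog Ube2e1 stood at 18.6, 15.8 and 19.2 CPM in AEL, against NC values of 17.3, 21.6 and 13.9 CPM, with overlapping groups and no call. Per kilobase of exon, Ube2e1 made up 14.2% ± 0.471 of the pair in AEL and 9.02% ± 1.88 in NC (SD, n = 3 each). Ube2d1, the least abundant of its 3 paralogs, had 16, 10 and 3 counts in AEL and 49, 51 and 55 counts in NC. It was called lower (log2 fold change -2.57, SE 0.60, adjusted p = 0.0110). The NC level was 6.23 times the AEL level, with an exact 95% counting interval of 4.17 to 9.61. With AEL replicate 3 at 0.274 CPM, Ube2d1 passed the filter of 1 CPM in 3 libraries only with NC libraries counted. Ube2d2a and Ube2d3, which held most of the reads of the trio, were not called, with log2 fold changes of -0.0059 (SE 0.10) and 0.13 (SE 0.18). Per kilobase Ube2d1 was 1.10% ± 0.891 of the trio in AEL and 6.24% ± 0.339 in NC. These shares depend on the annotated exon lengths, 4.37 kb for Ube2d1, 11.6 kb for Ube2d2a and 24.5 kb for Ube2d3. Ube2l3 and Ube2w were not called either.

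Of 3 E2 enzymes of DNA damage and chromatin, 2 fell, where 29.0% of all genes were called lower, and all 3 lay lower in every AEL library than in any NC library, as did 36.1% of all genes. Ube2b, a RAD6 homolog that ubiquitinates PCNA and histone H2B, stood at 51.0, 59.0 and 33.9 CPM in AEL, against NC values of 87.5, 93.4 and 96.4 CPM. Its log2 fold change was -0.95 (SE 0.21, adjusted p = 0.00921). Its close paralog Ube2a stood at 44.1, 39.9 and 47.5 CPM in AEL, against NC values of 55.3, 48.4 and 53.1 CPM, which do not overlap, but was not called (log2 fold change -0.25, SE 0.13, adjusted p = 0.154). Per kilobase, Ube2a was 46.7% ± 9.13 of the pair in AEL and 34.6% ± 2.31 in NC (SD, n = 3 each). Ube2t, the E2 of the Fanconi anemia pathway, stood at 26.3, 21.6 and 19.9 CPM in AEL, against NC values of 41.0, 37.7 and 32.6 CPM (log2 fold change -0.71, SE 0.18, adjusted p = 0.0164), a call that was lost without NC replicate 1 (adjusted p = 0.0792) and without NC replicate 2 (adjusted p = 0.0691), with 0.00265 as the lowest adjusted p over the alternatives.

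Ube2n, the E2 that builds lysine-63 chains with Ube2v1 or Ube2v2, stood at 49.3, 37.9 and 52.6 CPM in AEL, against NC values of 69.1, 67.7 and 68.6 CPM. The AEL libraries lay below, at a log2 fold change of -0.56 (SE 0.15, adjusted p = 0.0217). This call was lost under 5 of the 15 alternatives, where the adjusted p ran up to 0.0930, and the lowest over the alternatives was 0.0116. Its partners Ube2v1 and Ube2v2 overlapped between the groups, with log2 fold changes of -0.11 (SE 0.13) and -0.076 (SE 0.15). Of the exon bases of Ube2v1, 69.1% are shared with other gene annotations, so its counts are uncertain.

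Ube2g1 rose, and it was the only member of the lysine-48 group to be called. This E2 builds the chains that mark proteins for the proteasome, and it stood at 80.2, 91.7 and 91.4 CPM in AEL, against NC values of 60.6, 57.3 and 53.4 CPM. The log2 fold change was 0.62 (SE 0.12, adjusted p = 0.00554), with every AEL library above every NC library. Its paralog Ube2g2, which serves degradation at the endoplasmic reticulum, varied more within AEL, at 67.5, 54.5 and 101 CPM, against 94.0, 88.5 and 84.4 CPM in NC, and was not called. Ube2g1 was 39.4% ± 7.41 of the pair per kilobase in AEL and 25.4% ± 0.228 in NC (SD, n = 3 each). Ube2r2 and Ube2k, also of the lysine-48 group, had log2 fold changes of -0.45 (SE 0.20) and -0.27 (SE 0.12) and were not called.

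Ube2q1 was the other conjugating enzyme that rose, at 88.9, 123 and 96.0 CPM in AEL, against NC values of 65.0, 74.7 and 76.6 CPM (log2 fold change 0.51, SE 0.16, adjusted p = 0.0320). All AEL libraries lay above, but the call was lost without any 1 NC library, with adjusted p from 0.00930 to 0.116 over the alternatives. Its paralog Ube2q2 stood at 31.5, 65.2 and 36.1 CPM in AEL, against NC values of 41.1, 46.5 and 36.7 CPM, with overlapping groups. Ube2m and Ube2f, the E2 enzymes for NEDD8, were not called, with log2 fold changes of -0.099 (SE 0.098) and -0.21 (SE 0.25). Ube2j1 and Ube2j2, which act at the endoplasmic reticulum, and Ube2z were not called, and Ube2j1 spread within AEL, at 88.5, 219 and 194 CPM, against 149, 147 and 138 CPM in NC.

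**Figure D4:**
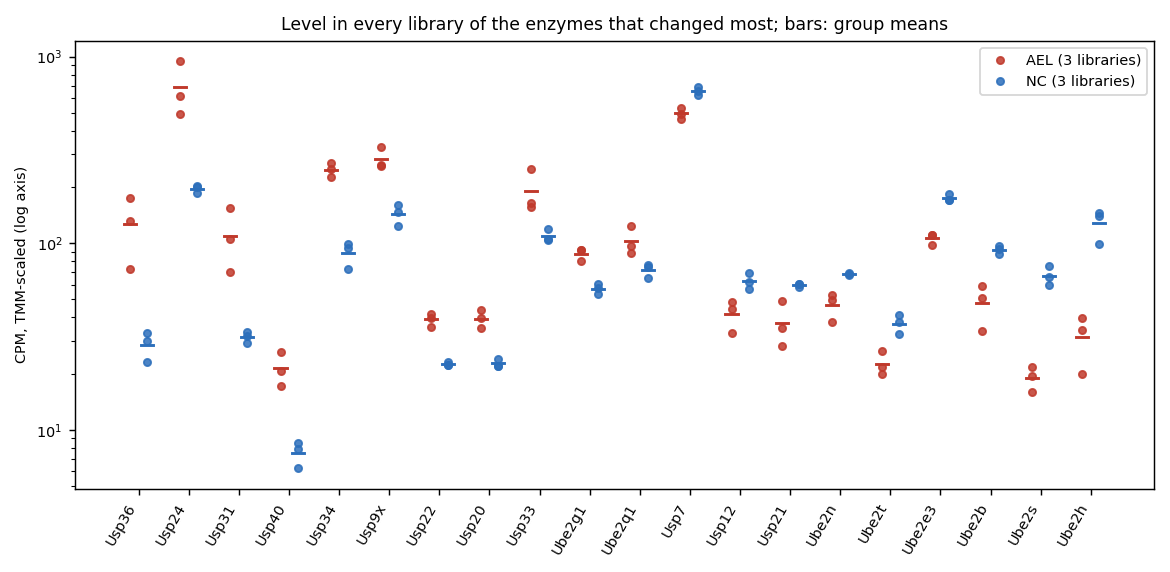
CPM in every library (log axis) for 20 of the called genes, AEL to the left of NC for each gene, with points for libraries and bars for group means. Usp36, with 72.9 to 175 CPM in AEL, against NC values of 22.9 to 32.8 CPM, shows a wide spread within AEL, whereas Ube2s, with 15.8 to 21.6 CPM in AEL, is tight in both groups.

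Among the proteases, Usp36, a nucleolar enzyme that acts on proteins of ribosome production, had the largest rise. It stood at 131, 72.9 and 175 CPM in AEL, against NC values of 22.9, 32.8 and 29.9 CPM. The lowest AEL library, replicate 2, was still above every NC library, and the log2 fold change was 2.15 (SE 0.33, adjusted p = 0.00230). Usp24, a very large protease, stood at 947, 495 and 614 CPM in AEL, against NC values of 186, 199 and 203 CPM, with AEL replicate 1 the highest. Its log2 fold change was 1.81 (SE 0.24, adjusted p = 0.00142). Usp24 took 15.8%, 9.15% and 11.3% of all Usp counts in AEL and 4.0%, 4.18% and 4.04% in NC, the largest share of any called Usp gene in each AEL library.

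Usp34, another very large protease, reported to stabilize AXIN in WNT signaling, stood at 270.0, 226 and 249 CPM in AEL, against NC values of 73.1, 93.7 and 99.5 CPM. Its groups were narrow and far apart, with a log2 fold change of 1.48 (SE 0.15, adjusted p = 5.63e-04). Usp24 was 79.7% ± 3.80 of the sum of Usp24 and Usp34 per kilobase in AEL and 76.8% ± 2.07 in NC (SD, n = 3 each). Usp31 stood at 105, 69.9 and 154 CPM in AEL, against NC values of 29.3, 33.6 and 31.8 CPM (log2 fold change 1.80, SE 0.29, adjusted p = 0.00252). Usp40 stood at 20.7, 17.2 and 26.2 CPM in AEL, against NC values of 7.87, 8.51 and 6.22 CPM (log2 fold change 1.5, SE 0.26, adjusted p = 0.00367). In both genes AEL replicate 3 was the highest library and replicate 2 the lowest of AEL. These 5 calls held under all 15 alternatives. Of the exon bases of Usp34, 11.6% are shared with other gene annotations, most of all with Ahsa2, also in the table.

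Of the 7 proteases of signaling and endosomes, 3 were called higher and none lower, against 23.9% and 29.0% of all genes. Usp9x, an X-linked protease with many substrates in signaling and apoptosis, stood at 326, 260.2 and 263 CPM in AEL, against NC values of 124, 148 and 160.3 CPM (log2 fold change 0.97, SE 0.15, adjusted p = 0.00218). Usp20 stood at 34.9, 39.5 and 43.6 CPM in AEL, against NC values of 24.0, 22.1 and 22.0 CPM (log2 fold change 0.79, SE 0.16, adjusted p = 0.00630). Its paralog Usp33 stood at 157, 250.1 and 163 CPM in AEL, against NC values of 106, 104 and 119 CPM (log2 fold change 0.79, SE 0.20, adjusted p = 0.0145). Usp20 and Usp33 both act on receptors in endosomes, and Usp20 stood at 18.7% ± 3.93 of the pair per kilobase in AEL and 18.2% ± 1.52 in NC (SD, n = 3 each). The Usp33 call was lost under 2 alternatives, where the adjusted p ran up to 0.0595 and was as low as 0.00131 elsewhere. Of its exon bases, 24.4% are shared with other gene annotations. Usp8, Usp11, Usp15 and Usp4 were not called.

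Of the 5 tested proteases that act on histones, 2 were called higher and 1 lower, against 23.9% and 29.0% of all genes. Usp22, the enzyme of the SAGA complex that takes ubiquitin off histone H2B, stood at 41.7, 35.6 and 39.9 CPM in AEL, against NC values of 23.2, 22.2 and 22.2 CPM (log2 fold change 0.79, SE 0.15, adjusted p = 0.00493). Usp16, which acts on histone H2A, stood at 85.2, 58.4 and 68.3 CPM in AEL, against NC values of 48.4, 46.7 and 47.1 CPM (log2 fold change 0.58, SE 0.16, adjusted p = 0.0234). Usp21, also an H2A deubiquitinase, went the other way, at 48.9, 35.0 and 28.3 CPM in AEL, against NC values of 58.1, 60.6 and 60.6 CPM (log2 fold change -0.68, SE 0.21, adjusted p = 0.0334). The calls of Usp16 and Usp21 were lost without any 1 NC library, with adjusted p from 0.00380 to 0.0817 and from 0.00539 to 0.0971 over the alternatives. Usp3, another of the proteases that act on histones, stood at 28.7, 57.7 and 32.7 CPM in AEL, against NC values of 29.5, 31.3 and 34.7 CPM, and was not called.

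Usp7, which deubiquitinates MDM2 and p53, stood at 532, 466 and 493 CPM in AEL, against NC values of 651, 624 and 685 CPM, and the groups did not overlap. It was called lower, at a log2 fold change of -0.39 (SE 0.11, adjusted p = 0.0207). Usp10 and Usp42, also linked to p53, lay above NC in every AEL library without a call, with log2 fold changes of 0.34 (SE 0.14) and 0.48 (SE 0.20). Usp12, activated by WDR48, stood at 44.2, 33.0 and 48.3 CPM in AEL, against NC values of 57.1, 61.7 and 69.0 CPM (log2 fold change -0.58, SE 0.18, adjusted p = 0.0312). Its paralog Usp46 stood at 118, 108 and 111 CPM in AEL, against NC values of 103, 99.2 and 110.2 CPM, with overlapping groups. Usp12 was 38.4% ± 4.10 of that pair per kilobase in AEL and 50.3% ± 1.68 in NC (SD, n = 3 each).

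Usp32 stood at 222, 208 and 159 CPM in AEL, against NC values of 252, 257 and 297 CPM (log2 fold change -0.46, SE 0.15, adjusted p = 0.0432). Usp6nl, the RAB regulator, stood at 112, 94.5 and 125 CPM in AEL, against NC values of 144, 160.3 and 158 CPM (log2 fold change -0.48, SE 0.13, adjusted p = 0.0225). The groups were apart for both, but the calls of Usp7, Usp12, Usp21, Usp32 and Usp6nl were all lost without any 1 NC library and with library totals alone. The highest adjusted p over the alternatives was 0.169, 0.112, 0.0971, 0.143 and 0.125 for these genes in that order. The lowest over the alternatives was 0.00156, 0.0179, 0.00539, 0.0180 and 0.00937.

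Usp35, the sixth gene called lower, had 1, 2 and 3 counts in AEL and 18, 18 and 33 counts in NC. Its NC level was 13.4 times its AEL level, with an exact 95% counting interval of 5.86 to 37.8 that covers counting error only. It lay below 1 CPM in every AEL library and passed the filter through NC alone, so a difference was fixed by the filter and its values are a description. Its call was lost with quantile normalization, where the log2 fold change was -0.53, against -3.66 with TMM scaling. Usp2 and Usp51 were left out by the filter, with 0 to 0.274 CPM in AEL against 0.827 to 1.61 CPM in NC for Usp2, and 0 to 0.823 CPM in AEL against 0.576 to 2.36 CPM in NC for Usp51. With no filter Usp2 was called lower (adjusted p = 0.0162) and Usp51 was not (adjusted p = 0.127). Usp18, which removes ISG15, lay below NC in all AEL libraries, at 8.33, 3.15 and 2.47 CPM in AEL, against NC values of 10.3, 13.2 and 12.7 CPM. It missed the threshold (log2 fold change -1.38, SE 0.49, adjusted p = 0.0514) and passed it under 4 alternatives, with adjusted p from 0.00271 to 0.139.

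The remaining called rises were Usp47, Usp48 and Usp53. Usp47, linked to base excision repair, stood at 185, 229 and 167 CPM in AEL, against NC values of 120.3, 131 and 124 CPM (log2 fold change 0.63, SE 0.14, adjusted p = 0.00945). Usp48 stood at 179, 245 and 203 CPM in AEL, against NC values of 138, 136 and 151 CPM (log2 fold change 0.56, SE 0.14, adjusted p = 0.0146). Usp53 was low, at 3.60, 9.22 and 6.95 CPM in AEL, against NC values of 2.06, 2.95 and 2.42 CPM (log2 fold change 1.41, SE 0.43, adjusted p = 0.0304). All AEL libraries lay above NC for these genes. The call of Usp48 was lost under 2 alternatives and that of Usp53 under 5, with adjusted p from 0.00227 to 0.0645 and from 9.92e-04 to 0.111. Usp54, the paralog of Usp53, stood at 15.8, 8.25 and 8.69 CPM in AEL, against NC values of 12.9, 14.1 and 14.2 CPM. The proteases of free chains and the proteasome, Usp5 and Usp14, were not called, with log2 fold changes of 0.26 (SE 0.13) and -0.059 (SE 0.13). Usp1, a WDR48 partner that acts on PCNA and FANCD2, spread within AEL, at 276, 156 and 319 CPM, against 276, 266 and 272 CPM in NC. Usp39, of the spliceosome, was nearly equal, at 159 ± 7.99 CPM in AEL libraries and 159 ± 6.63 CPM in NC libraries (SD over 3 libraries each).

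The members still to be named were not called. Usp30, a protease of the mitochondrial outer membrane, and Usp38 lay above NC in every AEL library, with log2 fold changes of 0.51 (SE 0.26) and 0.38 (SE 0.14). Usp25 and the pseudogene Ube2d-ps lay below NC in every AEL library, at -0.46 (SE 0.17) and -0.74 (SE 0.29). Usp37, Usp45 and Usp49 overlapped between the groups, at 0.12, -0.093 and -0.32. Of the exon bases of Usp49, 52.3% are shared with other gene annotations.

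AEL libraries varied more among themselves than NC libraries did. The highest library was a median of 1.46 times the lowest within AEL and 1.11 times within NC for the Usp genes, 1.36 times within AEL and 1.12 times within NC for the Ube2 genes, and 1.63 times within AEL and 1.21 times within NC for all genes. The spread within AEL went over 1.5 times for 19 Usp and 10 Ube2 genes, and within NC for 2 Usp and 3 Ube2 genes, against 57.0% of all genes within AEL and 17.6% within NC.

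Part of this spread ran by chromosome. On chromosome 9 the median log2 difference of 463 genes at 10 CPM or more from the NC mean was -0.69, 0.014 and -0.74 in AEL replicates 1 to 3. All 6 tested members there, Usp28, Ube2q2, Usp3, Ube2cbp, Usp4 and Usp19, were highest in AEL replicate 2, at 1.72 to 2.48 times the mean of the other two. AEL replicate 2 was also the highest AEL library for 73.2% of all tested genes of chromosome 9 and for 37.7% of all genes. Usp4, a protease of TGF-beta and WNT signaling, stood at 100.5, 188 and 90.4 CPM in AEL, against NC values of 208, 202 and 210 CPM, and it was not called with all libraries (log2 fold change -0.71, SE 0.28, adjusted p = 0.0677). Without AEL replicate 2 it was called lower, at -1.07 (adjusted p = 4.12e-04, the lowest of the alternatives, the highest being 0.190). Usp19, a protease anchored in the endoplasmic reticulum, stood at 126, 210.4 and 118 CPM in AEL, against NC values of 203, 197 and 219 CPM, and was called lower without AEL replicate 2 (log2 fold change -0.72, adjusted p = 0.00180, against 0.142 with all libraries and up to 0.392 over the alternatives).

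On chromosome 3 the medians were 0.13, 0.57 and 0.26 in AEL replicates 1 to 3, and all 4 members there, Ube2q1, Usp53, Ube2d3 and Usp33, were highest in AEL replicate 2, as were 67.4% of all tested genes of the chromosome. This takes in 3 of the 15 genes called higher. On chromosome 14 the medians were -0.020, -0.67 and -0.70, and AEL replicate 1 was the highest AEL library for 74.6% of all tested genes there and for 31.4% of all genes. Of the 2 members, Usp54 was highest in AEL replicate 1 and Ube2e1 in AEL replicate 3, as their levels above show. Chromosomes 3, 9, 14 and 19, picked from these values, had the medians that differed most between AEL libraries. Away from them, 11 of 34 Usp genes were higher and 6 lower, with a median of 0.19. There 1 of 24 Ube2 genes was higher and 7 were lower, with a median of -0.23, against 25.4% higher, 29.0% lower and a median of -0.022 over all genes of the other chromosomes. Chromosomes that moved alike in all AEL libraries stayed in, such as chromosome 18, at 0.26, 0.22 and 0.30 in AEL replicates 1 to 3.

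**Figure D5:**
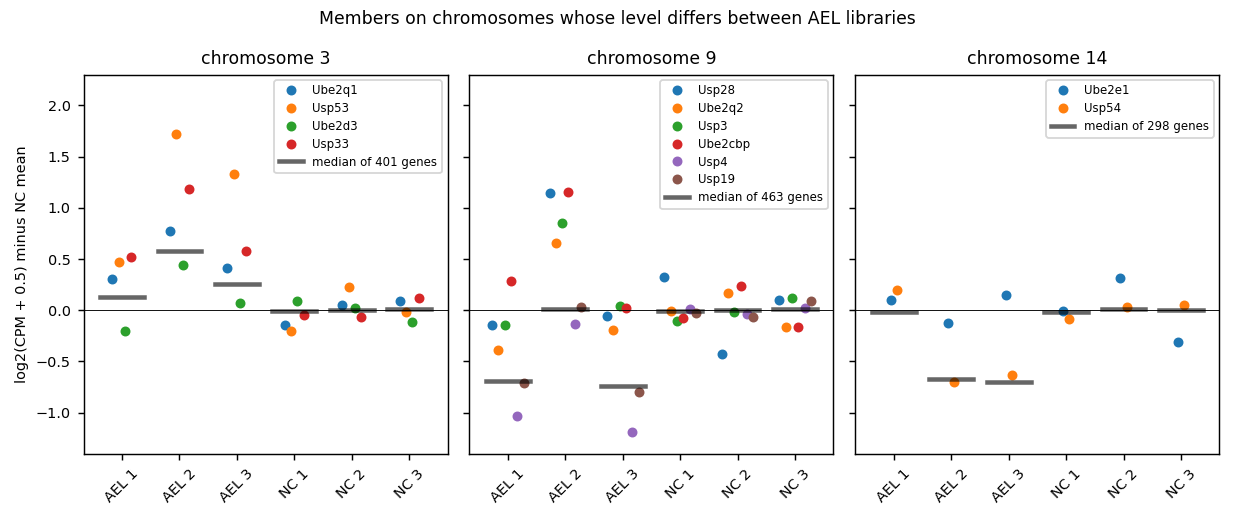
Difference of log2(CPM + 0.5) from the NC mean in every library for members on chromosomes 3, 9 and 14, with gray bars for the median of the chromosome's genes at 10 CPM or more in that library. On chromosome 9 the bars are at -0.69, 0.014 and -0.74 in AEL replicates 1 to 3, and the points of the 6 tested members are highest in AEL replicate 2.

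Other genes of the pathway, in 11 lists, had 30 of 118 tested genes higher and 21 lower, which is 25.4% and 17.8%, against 23.9% and 29.0% of all genes, and a median log2 fold change of 0.0015. The rises were near the share of all genes and the falls below it. Of 10 E1 activating enzymes 4 were higher and 1 lower. Uba6, the second E1 for ubiquitin, rose by 1.95 on the log2 scale, as all values of these lists are given (SE 0.19, adjusted p = 5.23e-04) and Uba1, the main one, by 0.66 (SE 0.11, adjusted p = 0.00301), while Uba7, the E1 for ISG15, fell by 1.22 (SE 0.28, adjusted p = 0.00977). Of 13 genes of ubiquitin and its relatives 2 were higher and 3 lower, with Ufm1 at 0.51 and Sumo3 at 0.32, calls that were lost under 6 and 5 alternatives, and the modifier gene Nedd8 at -1.04. Of 8 E2 enzymes under other names only Birc6, a giant inhibitor of apoptosis with E2 activity, was called, higher at 1.36.

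The CTLH complex, the ligase that works with Ube2h, had 11 genes tested, 3 higher and 3 lower, against 23.9% and 29.0% of all genes. The counts of the lists below compare with the same shares. Gid4, a substrate receptor, and Maea, a RING subunit, rose by 0.48 and 0.36, while Ypel5 and Ranbp10 fell by 1.49 and 1.21. The Maea call was lost with the replicate block and without any 1 NC library, and the Gid4 call without NC replicate 2. With the replicate block 1 gene of the complex was called higher, and 0 to 1 without any 1 NC library. Of 9 cofactors of USP enzymes 4 were higher, with G3bp1 and G3bp2, partners of Usp10, at 0.59 and 0.54, and 1 was lower, Eny2 of the SAGA module, at -0.82. The G3bp2 call was lost with the replicate block and without any 1 NC library. Wdr48 was not called (log2 fold change -0.31, SE 0.31). Of 15 E3 partners of E2 enzymes 4 were higher, with Hltf at 1.36 and Huwe1 at 1.34, and 2 lower, Stub1 at -1.01 and Rnf168 at -0.75. Of 10 cullins and RING subunits 3 were higher, with Cul4b at 0.60 and Cul2 at 0.51, and 2 lower, with Rnf7 at -1.02. The calls of Cul2 and Rnf7 were lost under 3 and 4 alternatives, all but 1 of each being without 1 NC library.

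Among deubiquitinases of other families, 13 OTU proteases had 3 higher, with Otud6b at 1.37 and Otud4 at 1.10, and 2 lower, Tnfaip3 at -1.25 and Otud5 at -0.84. Over all genes 23.9% were called higher and 29.0% lower, with which the counts of these lists compare. The calls of Otud6b and Otud5 were lost without NC replicate 3. Of 14 proteases of the UCH, JAMM and Josephin families 3 were higher, with Atxn3 at 1.05 and Mysm1, an H2A deubiquitinase, at 0.97, and 6 lower. The Mysm1 call was lost without NC replicate 1 or 2. Mpnd was at -3.77 and Josd2 at -2.53 among these, and Uchl1 was at 0 in all AEL libraries and at 2.32 to 3.43 CPM in NC. Uchl1 and another gene counted lower lay below 1 CPM in every AEL library and passed the filter through NC alone. For these genes a difference was thus fixed by the filter. Mpnd, at 0.900, 1.63 and 0.732 CPM in AEL replicates 1 to 3, also passed only with NC libraries counted. Of 8 proteases related to the USP family 2 were higher, Uspl1 at 1.13 and Cyld at 0.41, and 1 lower, listed as Fam63b, at -1.03. The Cyld and Fam63b calls were lost under 4 and 5 alternatives, each without any 1 NC library among them. Of 7 SUMO and NEDD8 proteases only Senp5 was called, higher at 0.73. Without any 1 NC library 33 of these pathway genes were called, against 51 with all libraries.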

How the data were processed

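The authors deposited a single table of whole-number counts per gene in 6 libraries; its name says CPM, but its values were counts that sum to different totals. In at least 2 libraries each gene lay above 1 CPM, so low genes had been removed before deposit. Per the submitters' processing notes, mm10 and edgeR 3.32.1 were named without a role; for aligner, counting tool and strand, values were not given in the sources used here, and genes that share exon bases are uncertain.

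The 12427 of 13007 genes that reached 1 CPM in 3 or more libraries were tested with edgeR 4.0.16 (R 4.3.3): quasi-likelihood test, TMM factors of 0.925 to 1.10, group as the only term, Benjamini-Hochberg adjustment at 0.05. The SE is the absolute log2 fold change over the square root of the F statistic. Alternatives included limma 3.58.1 and DESeq2 1.42.0, which left 26 adjusted p-values as NA. Between libraries the chi-square per degree of freedom was 4.94 to 9.09 within NC and 49.4 to 61.9 within AEL, so no library repeats another. AEL had a biological coefficient of variation of 44.3%, against 9.02% in NC. At these totals 3 counts equal 0.302 to 0.367 CPM, and count intervals cover counting error only.

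Coordinates and exon lengths came from GENCODE on GRCm38, the assembly mm10 denotes, with 96.7% of all tested genes given a length, and promoters from RefSeq. Shares between paralogs are of CPM per kilobase of exon, with all annotated exons of a gene counted together. The members and lists were chosen with earlier results of these data known, the motifs with the sequences seen. In each class the called genes with the largest changes at a mean of 10 CPM or more, up to 8 per direction, and their paralogs were given in every library, other members as seen fit after their values were known, and up to 2 genes per direction of each pathway list. Some genes that stand in the counts are not reported here by name or value. The test was checked on simulated counts with the same spread per gene in both groups. That differs from these data, so the check does not cover the wider spread within AEL.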

Additional observations from a re-analysis of the deposited data

How the results depend on the processing

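Of 28 called Ube2 and Usp genes, 15 kept the call and direction under all 15 alternatives in which they were tested, 13 lost the call in at least 1, and 0 changed sign; 19 uncalled members passed in at least 1. The labels do not say that replicate numbers pair the samples. Correlations of same-numbered deviations were 0.082, -0.017 and -0.031, against -0.075 to 0.090 for other numbers, and 3 libraries per group cannot settle a pairing. With the replicate block, 1 Ube2 gene was higher and 7 lower, and 11 Usp genes were higher and 1 lower. In all 5479 genes were then called, against 6564. Leaving out 1 library at a time gave 1 to 3 Ube2 genes higher, 1 to 6 Usp genes lower, 33 to 57 pathway genes called, and medians of -0.14 to -0.069 (Ube2) and 0.18 to 0.36 (Usp); without an NC library 4612 to 4744 genes were called in all, and without an AEL library 6437 to 7296. With library totals alone 1 Usp gene was lower, the Ube2 and Usp medians were 0.045 and 0.45, and the log2 differences of the class sums -0.0096 and 0.41. The Usp median was 0.24 with quantile normalization, 0.11 with no filter and 0.23 with a filter at 10 CPM.

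Only uncalled members changed sign; of those named, with library totals alone Ube2z was at 0.19, Ube2v2 at 0.11, Ube2l3 at 0.045, Usp14 at 0.13, Ube2d2a at 0.18, Ube2v1 at 0.070, Usp45 at 0.098, Usp1 at 0.076, Ube2j2 at 0.035, Usp39 at 0.18 and Ube2m at 0.088. With quantile normalization Ube2d-ps was at 0.21 and Ube2v2 at 0.024, and with the filter at 10 CPM Ube2e1 was at -0.0011. With 1 library left out, the log2 fold change ran from -0.10 to 0.16 for Ube2z, -0.12 to 0.20 for Ube2e1, -0.13 to 0.038 for Ube2v2, -0.16 to 0.083 for Usp14, -0.032 to 0.078 for Ube2d2a, -0.013 to 0.34 for Ube2d3, -0.12 to 0.067 for Usp45, -0.31 to 0.18 for Usp1, -0.25 to 0.029 for Ube2j2, -0.038 to 0.079 for Usp39, -0.098 to 0.73 for Usp28, -0.25 to 0.36 for Ube2q2, -0.0059 to 0.58 for Usp3 and -0.67 to 0.037 for Usp11. The cause of these changes was not tested. Depth limits Ube2d1 and Usp35, with 29 and 6 AEL counts in all.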
